A study of Mus musculus with 4 samples.

Results

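The nuclear-encoded subunits of the mitochondrial respiratory complexes I, III and IV and of ATP synthase, complex V, were described in single-cell RNA sequencing of mouse small-intestinal crypts. Members were selected on symbol prefix and abundance: symbols starting with Ndufa, Ndufb, Ndufc, Ndufs, Ndufv, Uqcr, Cox4, Cox5, Cox6, Cox7, Cox8 or Atp5, without assembly factors named Ndufaf and without symbols marked as pseudogenes. They also needed at least 100 UMIs (unique molecular identifiers, counts of captured transcript molecules) over the 4 libraries. Of 32285 genes, 81 had such a symbol and 76 reached the UMI minimum: 36 of complex I, 8 of complex III, 15 of complex IV and 17 of complex V. Cox6a2 lay just inside the minimum with 108 UMIs. The 5 symbols outside it were Ndufa4l2 with 16 UMIs, Cox4i2 with 7, Cox7b2 with 1, Cox8c with 1 and Cox8b with 0. The 76 members together held 16149330 UMIs.

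Per the series design, the study set epithelial cells of sleep-deprived mice beside cells taken before the deprivation. There are 4 small-intestine libraries, 2 labelled 0D (0D-1, 0D-2) and 2 labelled 2D (2D-1, 2D-2), read here as before and after. Values in fours follow that order, the 0D pair first and then the 2D pair. The labels do not spell out D, and they give no strain, genotype, sex or age. Crypts, the epithelial pits that hold stem and Paneth cells, were freed with 10 mM EDTA in all 4 libraries and sequenced with a 10x Genomics 3′ kit. Whether each library is a separate animal is not stated, so p-values reflect the spread among 4 libraries, part or all of which may be technical.

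Electrons from nutrient oxidation enter the respiratory chain at complex I (NADH) or complex II (succinate) and pass through ubiquinone, complex III and cytochrome c to complex IV, which reduces oxygen. Complexes I, III and IV pump protons across the inner mitochondrial membrane, and complex V makes ATP as protons flow back through its ring of c subunits. Most subunits are encoded in the nucleus and imported, while the 13 mRNAs of mitochondrial DNA encode core membrane subunits, so each complex except complex II draws on both genomes. In the small intestine, absorptive enterocytes are known as cells rich in mitochondria, and Paneth cells have been described as more glycolytic than the stem cells beside them.

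After filtering, the libraries held 7025 to 7988 cells, 93090534 to 113758758 UMIs and a median of 9247.5 to 13340.5 UMIs per cell. Barcodes shared between any pair of libraries numbered 13 to 16. The 0D pair lay 0.113 apart (root mean square log2 difference over 6792 genes) and the 2D pair 0.362. Over the 74 members among these genes, the distances were 0.0497 and 0.245. The library 2D-1 had a median mitochondrial share of UMIs of 6.25% per cell, against 3.71% to 4.48% in the others, so counts of called members and medians are also given without each 2D library where these move. Summed over all cells, the 5 B and plasma cell markers stood at 49.9, 54.2, 4.59 and 79.4 UMIs at a total of 1000000 UMIs (CPM), with none of the 5 at 0. The 5 myeloid markers summed to 3.35 to 5.89 CPM, the 5 T cell markers to 0.145 to 0.299, the 5 stromal markers to 0.514 to 0.769 with Dcn at 0, and the 3 red cell markers to 0.0215 to 0.452. Their part in the results was not tested.

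Cells were assigned to 7 classes by marker genes that include no member. Classes are ranges of a marker score, not types. They held 2991 stem-like cells (markers such as Lgr5 and Olfm4), 2869 dividing cells (Mki67, Top2a), 2876 enterocyte-like (Fabp1, Apoa1), 2340 Paneth-like (Lyz1, Mmp7), 10890 goblet-like (Muc2, Tff3), 1721 enteroendocrine-like (Chga, Chgb) and 695 tuft-like cells (Dclk1, Trpm5), and 5349 cells were left without a class. Near the threshold of the lineage scores, by their highest lineage score, lay 732 dividing, 491 enterocyte-like, 235 stem-like, 230 goblet-like, 101 enteroendocrine-like, 7 tuft-like and 5 Paneth-like cells. Nearness of the dividing score to its own threshold was not counted. In every class the median of its own score (0.263 to 0.756) exceeded the highest median of another class's score (0.00987 to 0.135, the last being the dividing score in stem-like cells). The gate itself requires a lead over the other lineage scores, so this is largely set by the gate and is not a separate result. Median UMIs per cell ranged from 2564 in tuft-like to 30515.5 in Paneth-like cells.

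RefSeq promoter windows (build GRCm38.p6, 250 bases before to 50 after the start) were found for 64 of the 76 members and not matched for 12, among them Ndufs1, Uqcrc2, Cox6a2, Cox4i1, Uqcrq, Atp5mpl, Uqcrb, Cox6c, Ndufb9, Ndufa2 and Atp5a1. The 120 bases before the start are shown for 5 members. Cox7a1, a tissue-restricted complex IV isoform, and Atp5k, the e subunit of complex V, are members whose 2D values were low in several classes. Atp5g1, Atp5g2 and Atp5g3 encode the same mature c subunit and differed in their class patterns. Capitals mark a searched motif.
Cox7a1, chr7:30184051-30184170, plus strand: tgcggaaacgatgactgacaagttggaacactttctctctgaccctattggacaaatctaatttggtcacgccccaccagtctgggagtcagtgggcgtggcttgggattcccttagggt
Atp5k, chr5:108434400-108434519, minus strand: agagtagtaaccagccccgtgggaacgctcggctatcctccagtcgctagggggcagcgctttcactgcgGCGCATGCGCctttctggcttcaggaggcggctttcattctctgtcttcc
Atp5g1, chr11:96075632-96075751, minus strand: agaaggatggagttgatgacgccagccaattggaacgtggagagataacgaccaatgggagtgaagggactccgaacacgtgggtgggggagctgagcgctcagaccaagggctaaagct
Atp5g2, chr15:102671048-102671167, minus strand: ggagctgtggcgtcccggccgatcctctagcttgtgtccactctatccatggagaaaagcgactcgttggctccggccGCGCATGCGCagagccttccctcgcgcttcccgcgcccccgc
Atp5g3, chr2:73911327-73911446, minus strand: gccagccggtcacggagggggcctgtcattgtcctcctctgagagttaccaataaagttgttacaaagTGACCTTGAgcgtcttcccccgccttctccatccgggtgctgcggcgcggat

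The 4 motifs searched on both strands of the 300-base windows belong to factors known to act on respiratory genes. NRF1, written GCGCATGCG, was in the windows of 8 members, 12.5% of 64, against 1.95% of 27025 genes. The capitals in Atp5k and Atp5g2 are NRF1 matches on both strands that overlap by all but 1 base on each side, since the motif is nearly its own reverse complement. YY1, written AAGATGGCG, was in 7 windows (10.9% against 1.64%), GABP, written CCGGAAGTG, in 2 (3.13% against 2.25%), and ERR, written TCAAGGTCA, in 1 (1.56% against 0.466%). The GABP windows were those of Ndufs3 and Uqcrh, and the ERR window was that of Atp5g3, whose capitals show the motif's other strand. At least 1 of the 4 motifs was in 18 windows, 28.1% against 6.01% of all genes. By complex these were 8 of 32 matched members of complex I, 3 of 5 of complex III, 1 of 12 of complex IV and 6 of 15 of complex V. A match describes these letters and is not a measured site.

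The first comparison set the classes beside each other. Enterocyte-like cells had the highest share of UMIs in the 76 members, at 6.96%, 7.08%, 6.18% and 6.78%, and Paneth-like cells had the lowest, at 0.691%, 0.524%, 0.708% and 0.616%. The order of the means was enterocyte-like 6.75% ± 0.40, dividing 5.26% ± 0.127, stem-like 4.27% ± 0.166, tuft-like 2.95% ± 0.304, goblet-like 2.92% ± 0.344, enteroendocrine-like 2.59% ± 0.079 and Paneth-like 0.635% ± 0.084 (SD, n = 4). The 4 libraries of the enterocyte-like, dividing, stem-like and Paneth-like classes did not overlap with those of any other class. Tuft-like, goblet-like and enteroendocrine-like cells overlapped with each other. A share of UMIs depends on what else the cell makes, and Paneth-like and goblet-like cells carry much secretory mRNA. With mitochondrially encoded genes and the class marker genes taken out of the total, the order was kept for the extremes, with means of 7.38% for enterocyte-like, 5.69% for dividing, 4.62% for stem-like, 3.74% for goblet-like, 3.37% for tuft-like, 2.88% for enteroendocrine-like and 1.83% for Paneth-like cells. Only the class markers were taken out, so other secretory mRNAs stay in the total. In the class test below, scaled to the bulk of genes, the lowest member median was instead enteroendocrine-like (-1.12), with Paneth-like cells at -0.32.

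The 4 complexes followed the same class order at the top and bottom. In enterocyte-like cells complex I made up 1.82% ± 0.111 of UMIs, complex III 0.807% ± 0.039, complex IV 1.94% ± 0.132 and complex V 2.18% ± 0.122 (SD, n = 4). In Paneth-like cells the values were 0.185% ± 0.021, 0.079% ± 0.011, 0.169% ± 0.024 and 0.201% ± 0.029 (SD, n = 4). Stem-like cells stood between them with 1.13% ± 0.047 for complex I, 0.499% ± 0.013 for complex III, 1.26% ± 0.045 for complex IV and 1.37% ± 0.063 for complex V (SD, n = 4). The plot of complex shares by class shows each library.

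**Figure D1:**
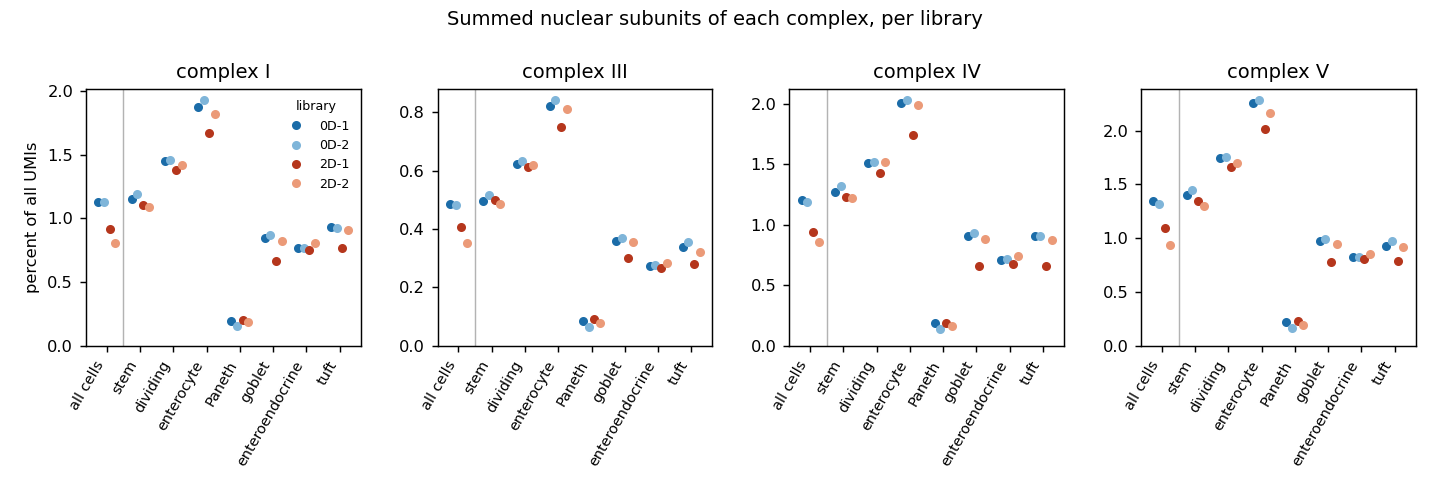
Percent of all UMIs (y axis, linear from 0, scale differing between panels) held by the summed nuclear subunits of complexes I, III, IV and V, in all cells and in 7 marker-gated classes (x axis), 1 point per library. The 4 enterocyte points lie highest and the 4 Paneth points lowest in every panel, while both 2D libraries lie below both 0D libraries in all cells.

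Relative to the mean of the other classes, with library as a block, 75 of 76 members were higher in enterocyte-like cells and 0 lower by edgeR's quasi-likelihood test (adjusted p under 0.05). Of all 14510 genes tested, 35.1% were called higher and 33.8% lower in that class. The exception was Cox6b2, at log2 -0.01 ± 0.25 (SE, n = 4). The median member difference was 1.31 on the log2 scale against -0.08 over all genes, and medians by complex were 1.28 for I, 1.36 for III, 1.27 for IV and 1.37 for V. Dividing cells had 72 members higher and 1 lower, Ndufa1, with 33.9% and 29.2% of all genes called and a member median of 0.66. Stem-like cells had 45 higher and 7 lower (33.1% and 31.8% of all genes, member median 0.21). The 7 lower members were Cox7a1 and 6 complex I accessory subunits, Ndufs5, Ndufb7, Ndufa6, Ndufv3, Ndufa11 and Ndufa1. Named for being in these small counts after their values were seen, Ndufv3 had 187, 186, 175 and 181 CPM in stem-like cells against 406, 421, 391 and 413 in enterocyte-like cells, without overlap. Its class difference in stem-like cells was log2 -0.75 ± 0.06 (SE, n = 4; edgeR adjusted p 1.59e-13).

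Enteroendocrine-like cells had 1 member higher, Cox7a2l, and 74 lower, where 37.2% of all genes were higher and 35.2% lower. Tuft-like cells had 1 higher, Cox6c, and 68 lower (21.5% and 26.5% of all genes). Member medians were -1.12 and -0.71 on the log2 scale. In goblet-like cells 9 were higher and 26 lower (33.5% and 29.6% of all genes, member median -0.07). The 9 were Atp5e, Cox6a1, Ndufa3, Cox7a1, Ndufa13, Atp5g1, Ndufs4, Ndufv3 and Cox8a. Goblet-like calls depended on 1 library, with 23 higher without 2D-1. In Paneth-like cells 2 were higher, Cox6a2 on 7 UMIs and Ndufa1, and 55 lower (28.3% and 23.9% of all genes), with a member median of -0.32. This test scales libraries to the bulk of genes, so its Paneth-like median is nearer to 0 than the CPM levels, in which 75 of 76 members were lowest in Paneth-like cells. Across the classes, 72 members had their highest mean CPM in enterocyte-like cells, 71 of them in all 4 libraries. The median ratio of a member's highest to its lowest class mean was 11.1.

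**Figure D2:**
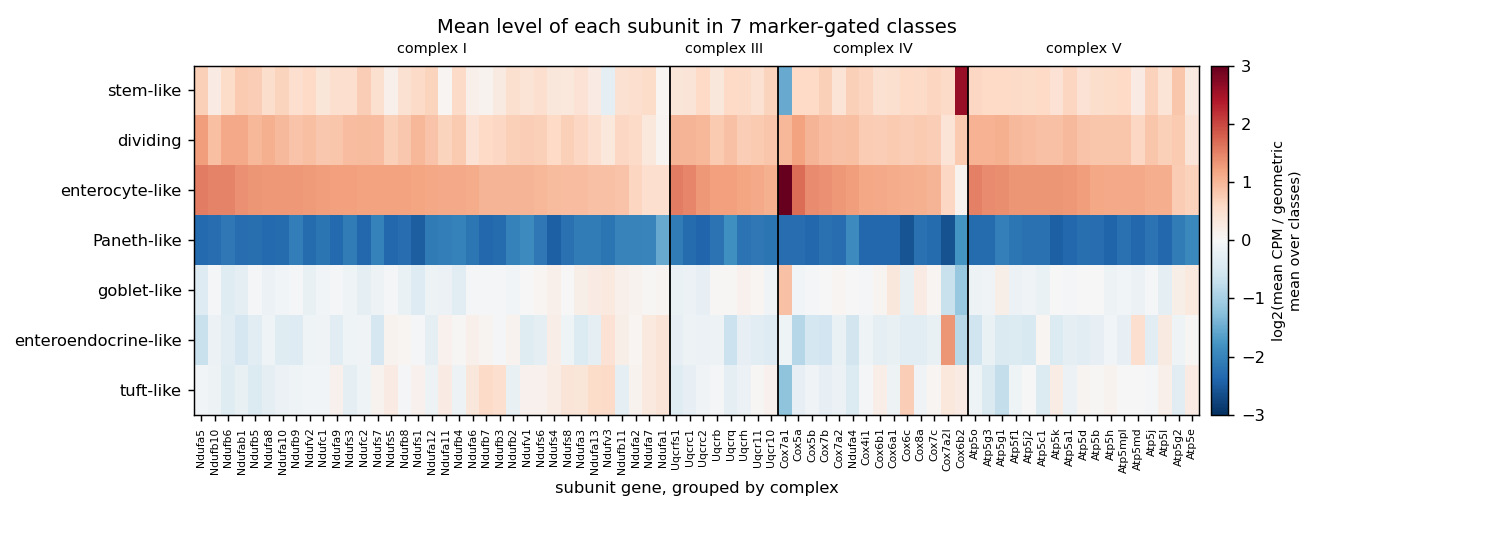
Mean CPM over 4 libraries of 74 members (x axis, grouped by complex) in 7 classes (y axis), as log2 of the ratio to the member's geometric mean over classes, with colours stopping at log2 3 and -3. The enterocyte row is the reddest and the Paneth row the bluest for most members, while in complex IV Cox6b2 is reddest in stem-like and Cox7a2l in enteroendocrine-like cells.

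Complex I oxidises NADH through 7 nuclear-encoded core subunits, surrounded by 29 accessory members here. Levels between genes are compared here per molecule, since 3′ counting does not scale with transcript length. The least abundant member of complex I in all cells was the core subunit Ndufs1, which carries iron-sulfur clusters, at a mean of 65.4 CPM, and the most abundant the accessory Ndufb9 at 695. Ndufa5 and Ndufab1, the mitochondrial acyl carrier protein, had the widest spread over the classes within complex I. Ndufa5 had 585, 629, 534 and 564 CPM in enterocyte-like cells and 45.5, 32.2, 45.7 and 35.6 in Paneth-like cells. Ndufab1 had 820, 893, 781 and 802 CPM against 70.2, 51.5, 74.3 and 65.5. Stem-like cells lay between, with means of 325 CPM for Ndufa5 and 547 for Ndufab1.

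Complex III passes electrons from ubiquinol to cytochrome c. Its highest member in all cells was the hinge protein Uqcrh at 883 CPM and its lowest the core protein Uqcrc2 at 230. The core protein Uqcrc1 had 567, 541, 599 and 549 CPM in enterocyte-like cells, 267, 257, 287 and 266 in stem-like cells and 43.1, 30.4, 54.6 and 38.8 in Paneth-like cells. Uqcrc1 was log2 1.62 ± 0.06 above the other classes in enterocyte-like cells and 0.06 ± 0.06 in stem-like cells (SE, n = 4). The edgeR adjusted p of the first was 9.26e-23, and the second did not pass with 0.454. The Rieske iron-sulfur protein Uqcrfs1, the catalytic subunit in this gene set, was log2 1.71 ± 0.08 in enterocyte-like and 0.03 ± 0.09 in stem-like cells (SE, n = 4).

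Complex IV reduces oxygen, and its nuclear subunits include pairs of genes for the same position, expressed in different tissues. Cox4i1 was the most abundant member in all cells, with a mean of 1536 CPM, and Cox6a2, the heart and muscle isoform, the least at 0.244. Cox6a2 had 42 UMIs in enterocyte-like, 21 in dividing, 7 in Paneth-like, 3 in stem-like and 1 in goblet-like cells. It had 0 in enteroendocrine-like and tuft-like cells, which allows up to 0.327 and 1.24 CPM there (3 counts of the class total, counting error only). Its paralog Cox6a1, the widespread isoform, had class means from 76.7 CPM in Paneth-like to 851 in enterocyte-like cells. Cox5a, a subunit next to the catalytic core, differed most between classes after Cox7a1, with 2249 CPM in enterocyte-like and 144 in Paneth-like cells. Ndufa4, counted here with complex IV although named for complex I, had 1626 CPM in enterocyte-like and 182 in Paneth-like cells. Cox8a, without its paralogs Cox8b and Cox8c among the members, had 2448 and 249.5 CPM.

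Cox7a1, known as the heart and muscle isoform of subunit VIIa, had the widest class spread of the members at 50 CPM or more in at least 1 class. Its CPM was 184, 172, 120 and 129 in enterocyte-like cells. It was 35.3, 33.7, 26.4 and 30.8 in dividing cells and 32.5, 35.8, 24.1 and 23.8 in goblet-like cells. In stem-like cells it was 7.62, 6.73, 3.51 and 4.41. All enterocyte-like libraries lay above all libraries of the other classes, and all stem-like libraries lay below all dividing ones. The class difference was log2 3.72 ± 0.08 in enterocyte-like and -2.11 ± 0.17 in stem-like cells (SE, n = 4). The ratio of its highest to its lowest class mean was 46.6. Its paralog Cox7a2, the widespread isoform, ran from 115 CPM in Paneth-like to 1388 in enterocyte-like cells.

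Cox7a2l, a factor of respiratory supercomplexes, was the only member with its highest mean in enteroendocrine-like cells. There it had 873, 826, 730 and 854 CPM, against 575, 554, 399 and 505 in enterocyte-like cells, without overlap. The enteroendocrine-like difference from the other classes was log2 0.70 ± 0.08 (SE, n = 4; edgeR adjusted p 3.79e-10). Cox6b2, known as the testis isoform of subunit VIb, had 16.1, 17.1, 11.2 and 17.8 CPM in stem-like cells, and class means of at most 4.39 elsewhere. Its stem-like difference was log2 2.65 ± 0.14 (SE, n = 4; edgeR adjusted p 3.21e-17), on 719 UMIs. The widespread Cox6b1 had 918 CPM in stem-like cells, so Cox6b2 was the minor isoform there. Cox6c, higher in tuft-like cells at log2 0.21 ± 0.08 (SE, n = 4; edgeR adjusted p 0.0367), had its highest mean in enterocyte-like cells, 1533 CPM against 1200.

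Complex V joins the catalytic F1 head to the membrane part through stalks. The stalk subunit Atp5o, also called OSCP, spread widest beside Atp5g3, with 1520 CPM in enterocyte-like and 108 in Paneth-like cells. The c-ring paralogs differed in order. Atp5g1 had means of 2240 CPM in enterocyte-like, 1794 in dividing and 1285 in stem-like cells, and Atp5g3 had 1146, 888 and 651 in the same order. Atp5g2 had 729 in enterocyte-like, 741 in dividing and 759 in stem-like cells. The Atp5g2 values of these 3 classes overlapped between libraries, while those of Atp5g1 and Atp5g3 did not. The class difference in enterocyte-like cells was log2 1.54 ± 0.07 for Atp5g1, 1.56 ± 0.07 for Atp5g3 and 0.81 ± 0.08 for Atp5g2 (SE, n = 4). These differences between paralogs were not tested. Atp5g2 and Ndufa7 joined Cox6b2 as the members with their highest mean in stem-like cells.

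**Figure D3:**
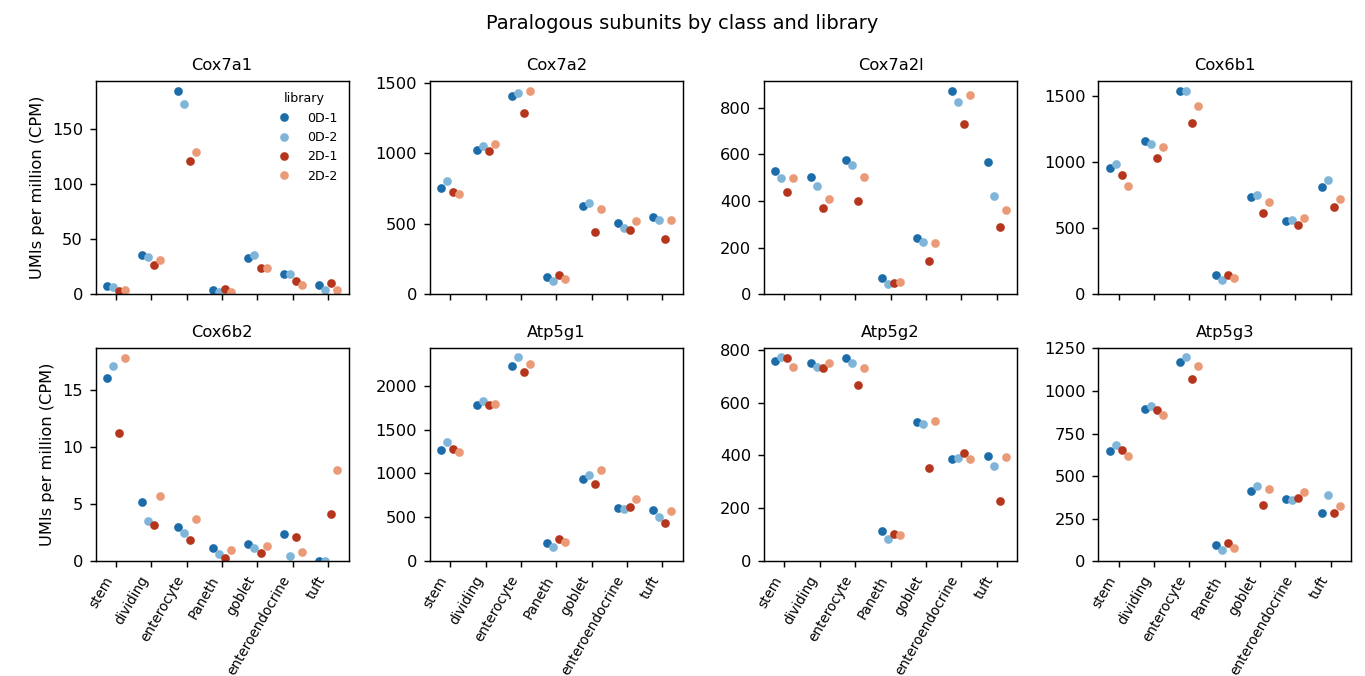
CPM (y axis, linear from 0, scale differing between panels) of 8 complex IV and complex V paralogs in 7 classes (x axis), 1 point per library. Cox7a1 is high in enterocyte cells, Cox7a2l in enteroendocrine cells and Cox6b2 in stem cells, and Atp5g2 is level over stem, dividing and enterocyte cells where Atp5g1 and Atp5g3 are not.

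The balance between complexes was alike in some classes and differed in others. Summed complex III divided by summed complex I was 0.432, 0.433, 0.450 and 0.448 in stem-like cells and 0.439, 0.437, 0.450 and 0.448 in enterocyte-like cells, which overlap. It was 0.356, 0.360, 0.354 and 0.353 in enteroendocrine-like cells and 0.365, 0.383, 0.363 and 0.355 in tuft-like cells, below every library of the stem-like, dividing, enterocyte-like and goblet-like classes. Complex IV over complex I was likewise lower in enteroendocrine-like cells (0.929, 0.933, 0.893 and 0.918) than in stem-like cells (1.11, 1.11, 1.11 and 1.12). Its mean was lowest in Paneth-like cells, at 0.912 ± 0.033 (SD, n = 4), which overlapped with enteroendocrine-like cells. Complex V over complex I had means of 1.019 ± 0.024 in tuft-like, 1.07 ± 0.008 in enteroendocrine-like and 1.21 ± 0.010 in stem-like cells (SD, n = 4).

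The 13 mitochondrially encoded mRNAs did not follow the nuclear members. In tuft-like cells they made up 10.4% ± 1.04 of UMIs and the nuclear members 2.95% ± 0.304 (SD, n = 4), a mean ratio of 3.59. In enterocyte-like cells the ratio was 1.03, at 6.95% ± 0.338 and 6.75% ± 0.40 (SD, n = 4). The ratio was 1.8 in Paneth-like, 1.40 in stem-like, 1.12 in dividing and 1.11 in enteroendocrine-like cells. In goblet-like cells it was 1.34, 1.25, 3.19 and 1.39, so 2D-1 stood apart. Tuft-like cells had the fewest UMIs, a median of 2564, and the highest median mitochondrial share, 13.7%. At no more than 10% mitochondrial UMIs, 36, 52, 40 and 89 tuft-like cells remained of 127, 170, 162 and 236. In them the nuclear members held 3.78%, 4.03%, 3.01% and 3.62% of UMIs. The part of depth and RNA quality in the ratios above was not tested.

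**Figure D4:**
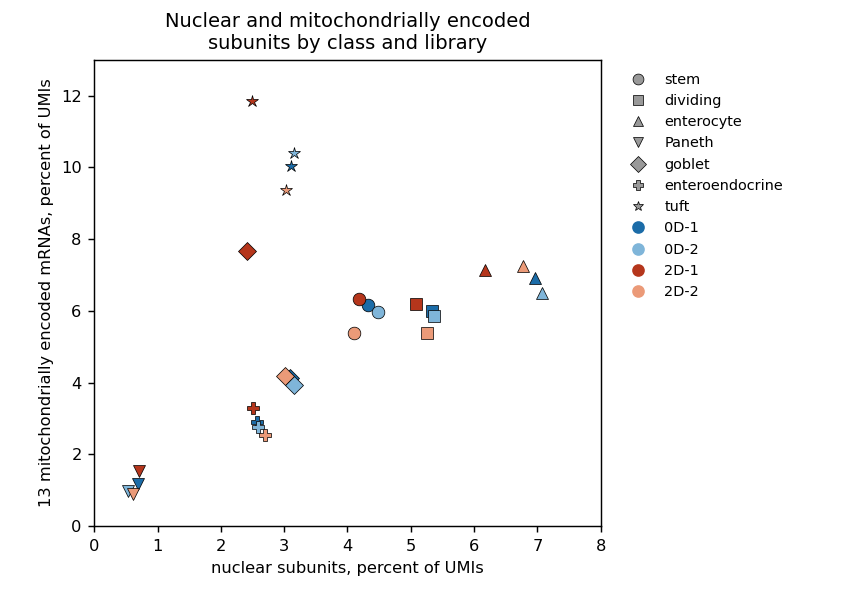
Percent of UMIs in the nuclear members (x axis) against percent of UMIs in the 13 mitochondrially encoded mRNAs (y axis), 1 point per class and library. Tuft points lie highest on the y axis at low nuclear values, enterocyte points lie farthest right, and the goblet point of 2D-1 lies above and left of the other goblet points.

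The second comparison asked whether members differed between the 0D and 2D libraries. In all cells summed, members held 4.17% and 4.12% of UMIs in 0D and 3.36% and 2.96% in 2D. Complex I held 1.13%, 1.13%, 0.918% and 0.807%, complex III 0.487%, 0.484%, 0.408% and 0.351%, complex IV 1.20%, 1.19%, 0.941% and 0.858%, and complex V 1.35%, 1.32%, 1.09% and 0.940%. Each complex was lower in both 2D libraries than in both 0D libraries, without overlap. In summed cells, fewer cells of a type and less RNA per cell cannot be told apart.

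The log2 change of all 76 members was below 0, with a median of -0.27 against 0.01 over all genes, and medians of -0.28, -0.22, -0.30 and -0.27 for complexes I, III, IV and V. By edgeR's quasi-likelihood test 0 of 76 were called (0% of 15454 genes), 43 had an unadjusted p under 0.05 (20.3% of all genes had), and the smallest adjusted p was 0.146. DESeq2 called 15 members lower, where it called 2.02% of genes lower. Both 2D libraries were below both 0D libraries for 75 members, as for 38.2% of all genes, and the exception was Uqcrc1 at 291, 272, 289 and 205 CPM. Without 2D-1, edgeR called 40 members lower (12.8% of genes), and without 2D-2 it called 23 (5.77%), taking the lone 2D library to vary like the 0D pair.

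Within complex I in all cells, the 29 accessory members had a median log2 change of -0.29 with 20 at an unadjusted p under 0.05 (edgeR), and the 7 core members -0.20 with 2. Of all genes 20.3% had such a p, and the difference between the roles was not tested. The accessory subunit Ndufb4 had 220, 226, 166 and 143 CPM, at log2 -0.42 ± 0.08 (SE, n = 2 against 2; adjusted p 0.151). Ndufb3, with 189, 194, 146 and 125 CPM, differed by log2 -0.39 ± 0.08 (SE, adjusted p 0.152). Ndufa3 and Ndufb2, also accessory, had log2 changes of -0.39 and -0.37. For each of these 4 the 0D and 2D values did not overlap, and none passed edgeR's adjusted threshold. Both 2D libraries lay lower for 75 of 76 members and 38.2% of all genes, so this does not set these 4 apart.

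In complex III the 4 members with the smallest p were 3 accessory subunits and Uqcrfs1. Uqcr11 had 787, 754, 605 and 542 CPM (log2 -0.31), Uqcrb, which takes part in ubiquinone binding, 553, 581, 467 and 384 (log2 -0.31), and Uqcrh 1029, 1006, 762 and 734 (log2 -0.33). The catalytic Uqcrfs1 had 280, 278, 248 and 193 CPM (log2 -0.24). The core proteins Uqcrc1 and Uqcrc2 had a median of -0.15. None of these was called by edgeR.

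In complex IV, Cox7a1 had the largest change of the members named, with 50.1, 49.6, 30.1 and 23.8 CPM and log2 -0.78 ± 0.09 (SE, n = 2 against 2; edgeR adjusted p 0.146, DESeq2 5.92e-07). Cox7c, a small structural subunit, had 1050, 1034, 716 and 655 CPM, at log2 -0.49 ± 0.10 (SE, edgeR adjusted p 0.152, DESeq2 9.03e-04). Cox7b, also structural, had 846, 828, 578 and 529 CPM (log2 -0.48 ± 0.10, SE), and Cox6c 984, 965, 722 and 653 (log2 -0.39 ± 0.10, SE). The 0D and 2D values of these 4 did not overlap, where both 2D libraries lay lower for 38.2% of all genes. Cox4i1 and Cox8a, both abundant, had log2 changes of -0.26 and -0.17.

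In complex V, the 5 membrane-part members had a median of -0.36 with 5 at an unadjusted p under 0.05 (edgeR), the 4 stalk members -0.34 with 4, the 3 c-ring paralogs -0.23 with 1, and the 5 F1 subunits, which carry the catalytic sites, -0.24 with 0. Such a p was found for 20.3% of all genes, and differences between these parts were not tested. Atp5k had 494, 476, 380 and 291 CPM, at log2 -0.43 (edgeR adjusted p 0.171). Atp5md, another membrane-part subunit, had a log2 change of -0.36, and the stalk subunits Atp5f1 and Atp5h had -0.38 each.

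The class mix also differed between the groups. Of all UMIs, Paneth-like cells held 12.8% and 12.0% in 0D and 22.8% and 26.4% in 2D, and enterocyte-like cells held 14.9% and 15.4% in 0D and 11.4% and 6.12% in 2D. Stem-like cells held 14.5% and 11.9% against 9.52% and 6.58%. Dividing cells, a class rich in members, held 15.5% and 14.6% in 0D, 17.1% in 2D-1 and 8.08% in 2D-2. Goblet-like cells held 24.8% and 30.2% in 0D, 20.1% in 2D-1 and 35.5% in 2D-2, so in both classes 2D-1 and 2D-2 lay on opposite sides of the 0D pair. With each class given the same share of UMIs in every library, members held 4.14%, 4.14%, 3.66% and 3.87% of UMIs. The median log2 change on plain CPM was then -0.13 in place of -0.38. By library it was -0.17 in place of -0.29 for 2D-1 and -0.09 in place of -0.49 for 2D-2. Equal shares thus took more from the difference of 2D-2 than from that of 2D-1.

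Within stem-like cells, members held 4.32% and 4.48% of UMIs in 0D and 4.18% and 4.10% in 2D. The median log2 change was -0.11, with 68 of 75 tested members below 0. By edgeR 0 were called (0.0501% of genes), 24 had an unadjusted p under 0.05 (11.8% of all genes had), and the smallest adjusted p was 0.183. In 41 members both 2D libraries were below both 0D libraries, as in 17.4% of all genes. DESeq2 called 3 members lower (0.326% of genes): Cox7c with 1200, 1259, 1015 and 982 CPM, Atp5k with 478, 474, 405 and 378, and Ndufa3 with 197, 209, 164 and 161. The 0D and 2D values of these 3 did not overlap, and their DESeq2 log2 changes were -0.33, -0.31 and -0.36 with adjusted p of 0.0081, 0.0379 and 0.0382. Without 2D-1, edgeR called 7 lower (1.93% of genes), and without 2D-2 it called 9 (3.00%), Ndufa3, Cox7c and Atp5k in both.

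Within dividing cells the members held 5.33% and 5.37% in 0D and 5.08% and 5.26% in 2D, with a median log2 change of -0.03 and 54 of 75 below 0. By edgeR 0 were called (0.00831% of genes), with 11 of 75 at an unadjusted p under 0.05, near the 12.1% of all genes, and 0 called by DESeq2. In 34 members both 2D libraries lay lower, as in 22.3% of genes. Cox7c had 1292, 1299, 1029 and 1111 CPM and Atp5k 657, 650, 559 and 524, again without overlap. Without 2D-1, Atp5k was called lower and Cox6a1 higher (6.54% of genes in either direction). Without 2D-2, 7 were called lower (4.08%), Atp5k among them.

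Within enterocyte-like cells the members held 6.96% and 7.08% in 0D and 6.18% and 6.78% in 2D. The median log2 change was -0.11, with 68 of 76 below 0. By edgeR 0 were called (0.104% of genes) and 10 of 76 had an unadjusted p under 0.05, about the share of all genes (12.6%). Both 2D libraries lay lower for 51 members, as for 23.7% of genes. Cox7a1, whose 4 values stand above, was called lower by DESeq2 as the 1 such member (0.354% of genes), at log2 -0.51 ± 0.09 (SE, n = 2 against 2; edgeR adjusted p 0.133, DESeq2 0.00551). Cox7c had 1579, 1596, 1216 and 1351 CPM, at log2 -0.30 ± 0.10 (SE). Without 2D-1, edgeR called Cox7a1 alone (1.42% of genes), and without 2D-2 it called 18 members lower (4.70%). The complex III core proteins Uqcrc1 and Uqcrc2 were among the members above 0 there, with a median of 0.053.

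Whether the change differed between enterocyte-like and stem-like cells was tested directly. The median difference of the class-by-group term was -0.03 for the members and -0.04 over all genes. That term gave 1 of 76 members an unadjusted p under 0.05 (edgeR), against 932 of 12495 genes. The term called 0 of 76 members (0.128% of genes), with a smallest edgeR adjusted p of 0.504. Without 2D-2 it called 3, Ndufa1, Cox7a2l and Uqcrq (2.44% of genes), at log2 -0.33, -0.25 and -0.21. Ndufa1, a small accessory subunit singled out after its values were seen, had 213, 228, 143 and 187 CPM in enterocyte-like and 152, 159, 129 and 130.5 in stem-like cells.

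In goblet-like cells 2D-1 differed from 2D-2. The members held 3.09% and 3.16% in 0D, 2.41% in 2D-1 and 3.01% in 2D-2. The median log2 change was -0.31, with 73 of 75 below 0. By edgeR 0 were called (0% of genes), 3 had an unadjusted p under 0.05 (8.55% of all genes had), and DESeq2 called 0. Both 2D libraries lay lower for 48 members, as for 17.1% of genes. Without 2D-1 the median was -0.05 and 5 members were called lower, Cox7a1, Ndufa1, Ndufb3, Cox7c and Ndufa3 (2.33% of genes). Without 2D-2 the median was -0.60 and 71 were called (21.2%). Goblet-like cells of 2D-1 had a median of 7409.5 UMIs, a median mitochondrial share of 8.45%, against 3.37% to 3.82% in the other libraries, and 7.68% of UMIs in the mitochondrially encoded mRNAs, against 3.94% to 4.18%. Among goblet-like cells with at most 10% mitochondrial UMIs, members held 3.10%, 3.18%, 2.61% and 3.03%, so 2D-1 was still the lowest. The 2 members above 0 in goblet-like cells, named after their values were seen, were Ndufa10, with 156, 153, 178 and 161 CPM, and Uqcrc1, with 172, 171, 196 and 184.

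Paneth-like cells showed no common direction. The members held 0.691% and 0.524% in 0D and 0.708% and 0.616% in 2D, with a median log2 change of 0.01 and 32 of 75 below 0. By edgeR 0 were called (0.0182% of genes), 2 had an unadjusted p under 0.05 (5.60% of all genes had), and DESeq2 called 0. Both 2D libraries lay lower for 1 member, as for 8.26% of genes, and higher for 7, as for 27.8% of genes. Leaving out 2D-1 gave a Paneth-like median of -0.017 and leaving out 2D-2 one of 0.025, with 0 called in each. It was 0.11 without 0D-1, with 13 of 75 below 0, and -0.091 without 0D-2, with 60 below 0. With the highest doublet scores left out it was -0.054 with 49 below 0. Enteroendocrine-like cells likewise held 2.57% and 2.59% in 0D and 2.51% and 2.70% in 2D, with a median of -0.00 and 37 of 74 below 0. There 0 were called by edgeR (0.335% of genes) and 0 by DESeq2, with 4 at an unadjusted p under 0.05 (7.72% of all genes). Both 2D libraries lay lower for 14 members, against 16.9% of genes, and higher for 18, against 20.2%. Leaving out 2D-1 gave 0.040 there and leaving out 2D-2 gave -0.066, with 0 called in each. In tuft-like cells, with 3.10%, 3.16%, 2.50% and 3.03%, the median was -0.24 and 65 of 73 were below 0. By edgeR 0 were called (0.0147% of genes), 6 of 73 had an unadjusted p under 0.05, near the 6.54% of all genes, and DESeq2 called 0. Both 2D libraries lay lower for 37, as for 16.1% of genes, and without 2D-2 edgeR called 16 lower (1.82%) with a median of -0.38. Without 2D-1 it called 0, with a median of -0.13.

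**Figure D5:**
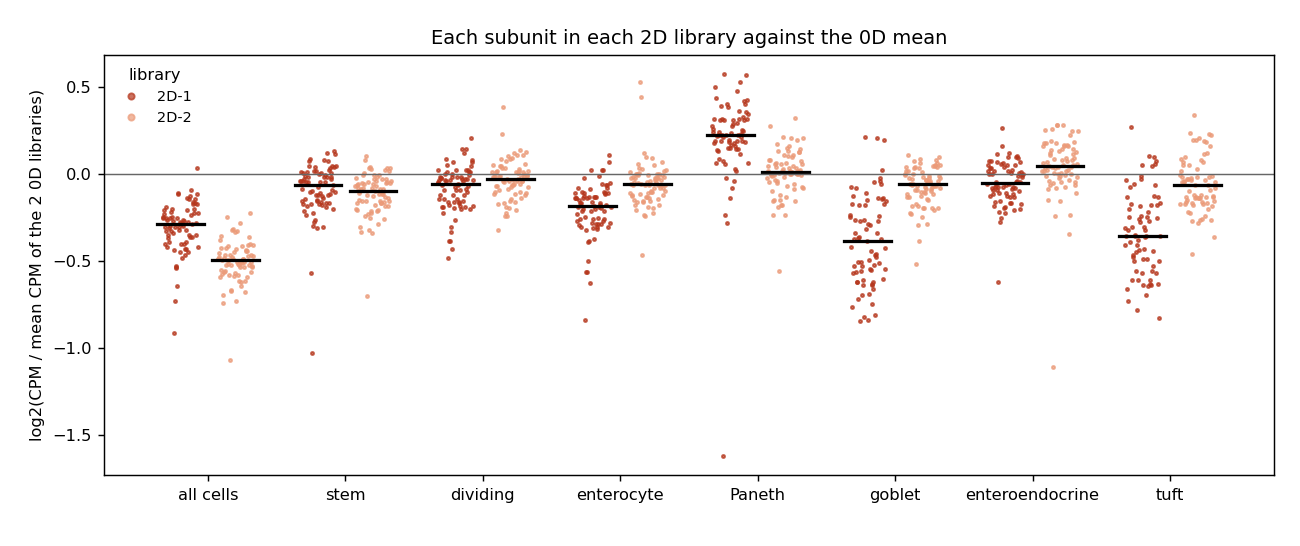
Log2 ratio of each member's CPM in 2D-1 (dark red) or 2D-2 (light red) to the mean CPM of both 0D libraries (y axis), in all cells and 7 classes (x axis), 1 point per member, with black bars at the medians. In all cells the medians are -0.29 and -0.49, while in enterocyte cells they are nearer to 0 and in goblet and tuft cells 2D-1 lies well below 2D-2.

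Other genes of the pathway were read from lists chosen with earlier results of these data known. In all cells, where the class mix differed between the groups, 0 genes of any list were called by edgeR. Of all genes, 49.2% were below 0. Of complex II and cytochrome c, which link the citric acid cycle and complex III to the chain, 6 of 6 were below 0 with a median log2 change of -0.28. Of assembly factors 39 of 41 were below 0 (median -0.20), among them Ndufaf2, an assembly factor of complex I, at 52.8, 54.0, 37.7 and 32.7 CPM. Of citric acid cycle enzymes 12 of 13 were below 0 (median -0.26), and of carriers and channels 5 of 7 (median -0.21). Of biogenesis regulators 7 of 12 were below 0 (median -0.21), with Tfam, the packaging and transcription factor of mitochondrial DNA, at 76.3, 72.3, 54.0 and 43.7 CPM. The mitochondrially encoded mRNAs had 8 of 13 below 0 (median -0.07) and glycolysis 9 of 14 (median -0.10), with the hexokinase Hk2 at 91.7, 99.3, 117 and 116 CPM. Both 2D libraries lay higher for 2 of the 14 glycolysis genes, Hk2 among them, and lower for 7. Of 15435 genes, both lay higher for 2523 and lower for 5894.

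In enterocyte-like cells against the other classes, where edgeR called 35.1% of all genes higher and 33.8% lower, it called higher 6 of 6 genes of complex II and cytochrome c (median log2 1.68), 13 of 13 citric acid cycle enzymes (1.36) and 12 of 13 mitochondrially encoded mRNAs (0.71). Of the assembly factors 37 were higher and 1 lower (median 0.81), below the member median of 1.31. Of glycolysis enzymes 11 of 14 were higher and 2 lower (median 1.45, above the member median), and of carriers and channels 6 of 7 were higher and 1 lower (1.17). Of the biogenesis regulators 7 were higher and 5 lower (median 0.29), the 5 of 12 being near the share of all genes called lower. Ppargc1a, the coactivator PGC-1 alpha, had 38.9, 41.5, 61.7 and 53.0 CPM there, at log2 4.63 ± 0.16 (SE, n = 4), while Pprc1, a related coactivator, stood at log2 -1.13. In tuft-like cells, with 21.5% of all genes called higher and 26.5% lower, 12 of 13 mitochondrially encoded mRNAs were higher (median 0.66), while 6 of 6 genes of complex II and cytochrome c (-1.06) and 10 of 14 glycolysis enzymes (-0.63) were lower. In enteroendocrine-like cells, with 35.2% of all genes called lower, 13 of 13 mitochondrially encoded mRNAs were lower (-1.57), as were 6 of 6 of complex II and cytochrome c (-1.35). Of 14 glycolysis enzymes, 11 were lower and 2 higher in Paneth-like cells (median -0.42), with 23.9% of all genes lower and 28.3% higher. Stem-like cells had 7 lower and 3 higher (median -0.14), with 31.8% and 33.1% of all genes. Glycolytic mRNAs were thus not raised in Paneth-like cells in this test.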

How the data were processed

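The authors deposited raw counts, whole-number UMIs per gene and cell barcode, for 4 libraries. Per the labels' protocols the kit was 10x 3′ version 2. Counting was by Cell Ranger 2.1.1 with mm10, per the submitters' processing notes, and by cellranger 7.0.0, per the file headers. How reads matching both a gene and a pseudogene copy, of which many subunit genes have several, were counted is not given in the sources used here. Whether intron reads were counted is not given either.

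Cells were kept if they had at least 500 genes and no more than 20% mitochondrial UMIs. Each marker, per 10000 UMIs, was divided by its 95th percentile over cells with a UMI and capped at 1. A class score is the mean over its markers. A cell took the class with the highest score if that was at least 0.15 and 2 times the next, with 3 markers detected, and otherwise stayed ungated. Cells with every lineage score under 0.15, a dividing score of at least 0.15 and 3 dividing markers detected were dividing. Doublets were scored with Scrublet through scanpy and kept, and an alternative left out the 8% with the highest scores.

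UMIs were summed per library and class, since cells are not replicates. Levels are CPM on these totals. Tests were edgeR's quasi-likelihood test (filterByExpr, TMM, Benjamini-Hochberg over all genes tested, threshold 0.05), for 2D against 0D, for each class against the mean of the others with library as a block, and for a class-by-group term. With 2 libraries a group, leaving out 1 assumes that the lone library varies like the other group. Sums over members got no test. On simulated data for the same designs, 86.9% of 2-fold changed genes were recovered in all cells (15458 genes), 83.8% in stem-like cells (11971), 100% between classes (13808) and 84.5% for the class-by-group term (13324). The simulation gave all libraries the same fixed variability and mean profile, whereas the real 2D pair lay farther apart than the 0D pair. Member changes in 2D against 0D were smaller than 2-fold. These shares therefore do not give the power of the 2D against 0D tests here.

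Members and lists were chosen with earlier results of these data known. Members named are those called in a 2D against 0D comparison, the 4 with the smallest p in each complex, the 2 with the widest class spread (at 50 CPM or more in 1 class), the highest and lowest, and the isoform groups. Alternatives were DESeq2, no low-count filter, a stricter gate (1.5 times), at most 10% mitochondrial UMIs, equal class shares, a replicate block and each library left out. Promoters came from RefSeq, GRCm38.p6. The values of 1 member, counted in the totals, are not reported here. Software was Python 3.11.15 with numpy 2.4.6, scipy 1.17.1, pandas 2.3.3, scanpy 1.11.5 and matplotlib 3.10.9, and edgeR 4.0.16, DESeq2 1.42.0 and limma 3.58.1 in R 4.3.3.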

Additional observations from a re-analysis of the deposited data

Results flagged for a closer look

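The balance between complexes lay in opposite directions between classes in 2D against 0D, and these differences were not tested. The mean ratio of summed complex IV to complex I was 0.903% higher in 2D than in 0D in stem-like cells, with both 2D libraries above both 0D libraries. Its change was -6.51% in tuft-like cells and -2.79% in enteroendocrine-like cells, with both 2D libraries below both 0D libraries. These sizes rest on 2D-1, the library with the raised mitochondrial share: tuft-like cells had ratios of 0.975, 0.978, 0.862 and 0.963, and without 2D-1 the change was -1.34% in tuft-like and -1.45% in the enteroendocrine-like class. In stem-like cells, leaving out 2D-1 gave 1.64% and leaving out 2D-2 gave 0.165%. The mean ratio of complex III to complex I was higher in 2D by 3.78% in stem-like, 1.51% in dividing, 2.43% in enterocyte-like and 4.66% in goblet-like cells. Its change was -3.96% in tuft-like cells and -1.28% in enteroendocrine-like cells. Leaving out 2D-1 gave 0.704% in dividing, 3.01% in goblet-like, 3.52% in stem-like, 2.23% in enterocyte-like, -5.01% in tuft-like cells and -1.51% in the enteroendocrine-like class. Leaving out 2D-2 gave 2.33% in dividing cells. Classes were listed here because both 2D libraries lay on the same side of both 0D libraries, so that is not a separate result. Classes whose 0D and 2D ratios overlapped, such as Paneth-like cells in both ratios, are not listed.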

How the results depend on the processing

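Of the values for counts and medians under other settings, 306 stayed the same and 35 moved. A count stayed the same within a factor of 1.5, and a median within the SD among libraries of a group. For single members and summed complexes together, 349 values stayed the same and 53 member values passed the threshold. Another 40, all of summed complexes, moved by at least their SD over libraries. In 1 case the direction reversed: Uqcrc1 in all cells, at log2 0.055 without 2D-2 and -0.26 without 2D-1 in place of -0.09. DESeq2 called 15 members in all cells, 3 in stem-like and 1 in enterocyte-like cells where edgeR called 0. With no low-count filter edgeR called 7 in stem-like, 4 in dividing and 2 in goblet-like cells, where it called 1.25%, 0.779% and 0.828% of genes lower. In Paneth-like cells 1 member was higher than in the other classes, in place of 2, with the highest Scrublet scores left out and with the stricter gate. With equal class shares the median change in all cells was -0.13 in place of -0.38. The cause of the other changes was not tested. Leaving out 1 library gave 0 to 40 members called in all cells, 0 to 9 in stem-like, 0 to 7 in dividing, 0 to 18 in enterocyte-like, 0 to 71 in goblet-like and 0 to 16 in tuft-like cells, and 0 to 3 for the class-by-group term. Median changes ran from -0.064 to -0.013 in dividing, -0.19 to -0.042 in enterocyte-like, -0.60 to -0.050 in goblet-like, -0.38 to -0.13 in tuft-like, -0.091 to 0.11 in Paneth-like and -0.066 to 0.040 in enteroendocrine-like cells. Members called higher than in the other classes ran from 1 to 2 in Paneth-like, 6 to 23 in goblet-like and 0 to 1 in tuft-like cells. Alternatives of the class-by-group term were chosen after seeing the data.

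Replicate numbers are shared by only 2 pairs, whose deviations correlated at 0.232 over genes, and nothing says that a number marks a shared animal or day. With the replicate block edgeR called 1 of 75 members in goblet-like cells, Cox7a1, near the 0.963% of genes called lower, and 0 in all cells and in every other class. Precision is limited by 2 libraries a group. DESeq2's size factors moved the median class difference of all genes in enteroendocrine-like cells from -0.00 to 0.11, and that of the members from -1.12 to -1.01.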
